A study of Homo sapiens with 12 samples.

Results

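The ATG8 genes of human cells were followed in RNA-seq libraries of HEK293T cells, an established embryonic kidney line that takes up plasmids readily. The 6 genes were the LC3 genes MAP1LC3A, MAP1LC3B and MAP1LC3B2 and the GABARAP genes GABARAP, GABARAPL1 and GABARAPL2. They were chosen by symbol, not by their values, out of 41878 gene entries, and each symbol had 1 entry. Counts of 5 of the 6 were high enough to test, among 18030 genes tested. MAP1LC3A was not tested, because it had 0 counts in every library.

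Cells of all groups were transfected with 1 µg of plasmid and kept in medium with 10% serum until the last step. One plasmid was a control vector and the other carried TRPML3 (gene MCOLN3), which forms a cation channel in the membranes of endosomes, autophagosomes and lysosomes. The cells then either stayed in serum or were held in 0% serum for 4 h, a treatment meant to induce autophagy. This gave 4 groups, vector fed, vector starved, TRPML3 fed and TRPML3 starved, each with 3 biological replicates per the labels. The labels name no deletion and no sorting of transfected cells in any group, so RNA of cells with and without plasmid was read together. In such bulk RNA, fewer cells of a kind and less RNA per cell cannot be told apart.

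ATG8 proteins resemble ubiquitin and are attached to a lipid of the growing autophagosome membrane. ATG4 proteases first cut the newly made protein behind a glycine near its end, and the E1-like ATG7, the E2-like ATG3 and a complex of ATG12, ATG5 and ATG16L1 then join that glycine to phosphatidylethanolamine. On the membrane, ATG8 proteins hold cargo receptors such as SQSTM1 and proteins that act in the formation, transport and fusion of autophagosomes. LC3 and GABARAP proteins form separate subfamilies, and TRPML3 is known to bind GABARAPL2.

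The end of each coding sequence is shown because it holds the codon of the glycine that ATG4 exposes and separates the subfamilies. Sequences run 5′ to 3′ on the coding strand to the stop codon, from the GENCODE 29 transcripts of GRCh38, and the capitals mark the last in-frame glycine codon.
MAP1LC3A: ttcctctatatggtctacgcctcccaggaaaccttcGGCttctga
MAP1LC3B: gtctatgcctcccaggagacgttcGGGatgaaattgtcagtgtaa
MAP1LC3B2: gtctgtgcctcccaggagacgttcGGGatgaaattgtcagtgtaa
GABARAP: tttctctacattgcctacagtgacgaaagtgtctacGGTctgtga
GABARAPL1: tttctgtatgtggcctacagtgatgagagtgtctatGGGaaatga
GABARAPL2: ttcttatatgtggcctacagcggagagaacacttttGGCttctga
The glycine is codon 120 in the 3 LC3 genes and codon 116 in the 3 GABARAP genes. In MAP1LC3B and MAP1LC3B2, 5 codons follow it before the stop, and in the other 4 genes 1 codon does.

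The coding sequences also show which counts can be attributed to 1 gene. MAP1LC3B and MAP1LC3B2 were identical at 376 of 378 coding bases (99.5%). Counted from 1 at the first coding base, the differences were C30G and A338G, with the MAP1LC3B base first, and they are shown in capitals within coding bases 10 to 50 and 318 to 358.
MAP1LC3B, bases 10 to 50: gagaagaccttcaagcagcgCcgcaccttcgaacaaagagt
MAP1LC3B2, bases 10 to 50: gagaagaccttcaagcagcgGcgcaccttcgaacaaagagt
MAP1LC3B, bases 318 to 358: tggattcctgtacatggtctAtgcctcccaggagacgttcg
MAP1LC3B2, bases 318 to 358: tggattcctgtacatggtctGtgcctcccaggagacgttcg
Of the 100-base windows of the MAP1LC3B2 transcript, 208 of 561 (37.1%) were also found in MAP1LC3B, and these made up 8.03% of the MAP1LC3B windows. How reads that fit both genes were counted is not given in the sources used here, so the MAP1LC3B2 values, and to a smaller extent those of MAP1LC3B, are uncertain. GABARAP and GABARAPL1 shared 76.8% of aligned coding bases and MAP1LC3A and MAP1LC3B 73.5%. GABARAPL2 matched the other GABARAP genes at 62.1% and 62.4% and the LC3 genes at 57.1% to 58.5%.

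All 6 are protein-coding genes in GENCODE 29 on GRCh38, the build named in the submitters' processing notes. The coordinates are from that release, and the identifiers carry the version numbers of the count table, which differ from those of GENCODE 29 for all 6. MAP1LC3A (ENSG00000101460.13) spans chr20:34546854-34560345 on the plus strand. MAP1LC3B (ENSG00000140941.14) spans chr16:87383995-87404779 and GABARAPL2 (ENSG00000034713.8) chr16:75566351-75577881, both on the plus strand. MAP1LC3B2 (ENSG00000258102.5) spans chr12:116548105-116576448 and GABARAPL1 (ENSG00000139112.11) chr12:10212458-10223130, both on the plus strand. GABARAP (ENSG00000170296.10) spans chr17:7240014-7242770 on the minus strand. The MAP1LC3B2 transcript has 2 exons, where those of the other 5 genes have 4.

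Library totals ran from 33101540 to 43700547 counts. MCOLN3 followed the plasmid labels, at 9.31 to 18.4 CPM (counts scaled to a common library size) in the 6 vector libraries and 4929 to 58223 CPM in the 6 TRPML3 libraries. All 8 HEK293T markers were detected, from PAX2 at 0.839 to 5.33 CPM and LHX1 at 1.92 to 14.6 CPM up to VIM at 182 to 585 CPM. The 9 markers of blood, endothelial, fibroblast, liver and red cells summed to between 3.36 and 5.93 CPM, with HBB at 0. Of these, LUM (2.30 to 4.38 CPM) and ALB (0.234 to 2.05 CPM) were also detected in every library. The range of LUM overlapped those of PAX2 and LHX1. The share of counts from mitochondrial genes differed by replicate number, at 2.81 to 4.40% for number 1, 1.05 to 2.52% for number 2 and 4.83 to 5.70% for number 3.

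Some libraries with replicate number 3 stood apart from their groups. By Spearman's rho across genes, averaged over replicates 1 and 2, the third vector fed library was nearer to the starved (0.951) than to the fed libraries (0.936) of its plasmid. The third TRPML3 fed library was so too, with 0.945 against 0.935. Against starved and fed replicates, the values were 0.930 and 0.932 for TRPML3 starved replicate 3, and 0.939 and 0.935 for vector starved replicate 3. MCOLN3 was at 4929 and 6211 CPM in TRPML3 fed replicates 1 and 2 but at 39972 CPM in replicate 3, and at 41362 and 58223 CPM in TRPML3 starved replicates 1 and 2 but at 16896 CPM in replicate 3. The results for GABARAPL1 are given with and without them.

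Levels are given as CPM after TMM scaling, with the 3 values of a group in the order of replicates 1, 2 and 3. MAP1LC3A had 0 counts in 12 of 12 libraries, which allows at most 3 counts or 0.0675 to 0.0978 CPM per library. How reads were assigned to genes is not given in the sources used here, so this states only that no count was assigned to it. Of the other entries with LC3 or GABARAP symbols, MAP1LC3C had 126 counts in all, from 0 to 29 per library (mean 0.274 CPM). It was high enough to test but is not among the 6 genes chosen and is left out of the family sums. The 2 entries for GABARAPL3 had 32 and 7 counts, MAP1LC3BP1 had 5, and GABARAPL1-AS1 and MAP1LC3P had 0.

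MAP1LC3B, the LC3 protein most often used to mark autophagosomes, was the family member with the most counts. Its level was 138, 280.2 and 155 CPM in vector fed, 250.1, 220.3 and 222 CPM in vector starved, 249, 257 and 215 CPM in TRPML3 fed and 239, 251 and 251 CPM in TRPML3 starved cells. Both the lowest and the highest of the 12 values lay in the vector fed group, which overlapped each of the groups it was compared with. Group means ran from 191 ± 77.8 (SD, n = 3) in vector fed to 247 ± 7.02 CPM in TRPML3 starved cells, with vector starved and TRPML3 fed between them, and neighbours in that order overlapped.

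MAP1LC3B2, the near copy of MAP1LC3B, had the lowest level of the 5 tested members. It was at 10.5, 9.71 and 5.02 CPM in vector fed, 6.46, 5.46 and 8.35 CPM in vector starved, 7.22, 12.0 and 4.30 CPM in TRPML3 fed and 4.44, 7.76 and 10.6 CPM in TRPML3 starved cells. In both fed groups replicate 3 was the lowest, and in both starved groups replicate 3 was the highest. All groups overlapped.

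GABARAP, the founding member of its subfamily, was at 85.6, 144 and 73.5 CPM in vector fed and 151, 81.7 and 89.8 CPM in vector starved cells. With TRPML3 it was at 73.8, 71.2 and 78.0 CPM in fed and 74.8, 85.1 and 93.3 CPM in starved cells. The 2 values above 100 CPM were vector fed replicate 2 and vector starved replicate 1, and the other 10 lay between 71.2 and 93.3 CPM.

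GABARAPL1, a close relative of GABARAP, had the widest range as a ratio of the 5 detected members. Its level was 164, 188 and 86.1 CPM in vector fed, 116, 101.1 and 112 CPM in vector starved, 169, 163 and 124 CPM in TRPML3 fed and 59.7, 65.2 and 186 CPM in TRPML3 starved cells. Replicate 3 was the lowest of both fed groups, and in the TRPML3 starved group it was far above the other two. The fed and starved groups of each plasmid overlapped only through libraries numbered 3.

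GABARAPL2, the family member that TRPML3 is known to bind, had the narrowest range. It was at 123, 117 and 87.6 CPM in vector fed, 122, 102 and 99.9 CPM in vector starved, 109, 115 and 107 CPM in TRPML3 fed and 99.6, 128 and 127 CPM in TRPML3 starved cells. The highest library was 1.46 times the lowest, against 3.15 times for GABARAPL1. Group means lay between 108 ± 12.0 and 118 ± 16.2 CPM (SD, n = 3), closer together than the replicates of 3 of the 4 groups.

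**Figure D1:**
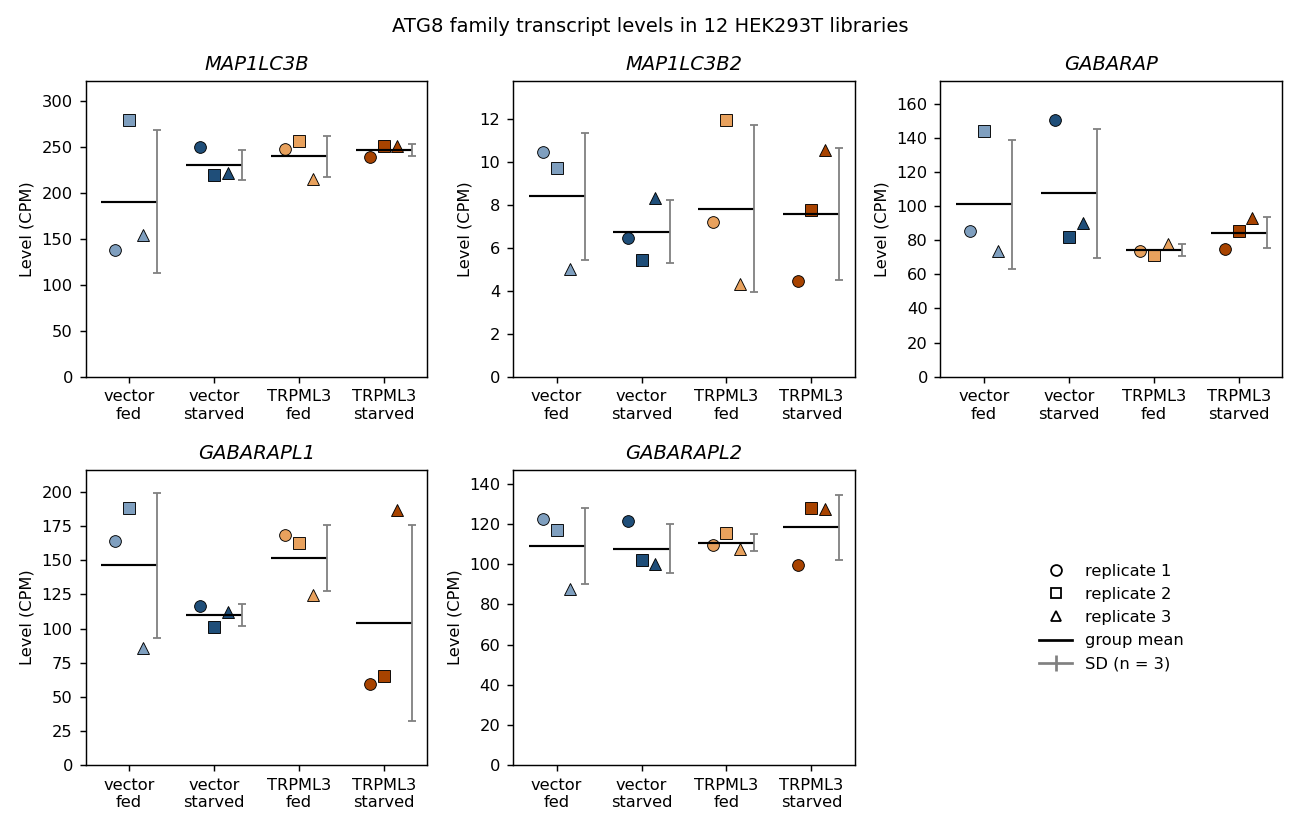
Level of each detected ATG8 gene in CPM (vertical axis, from 0) in the 4 groups; symbols are the 12 libraries by replicate number, horizontal lines the group means and grey bars the SD (n = 3). GABARAPL2 stays between 87.6 and 128 CPM, while GABARAPL1 ranges from 59.7 to 188 CPM with replicate 3 apart from replicates 1 and 2 in both fed groups and in TRPML3 starved cells.

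The spread within groups differed among the members. The coefficient of variation within groups was 11.5% for GABARAPL2, 15% for MAP1LC3B, 22.0% for GABARAP, 32.1% for GABARAPL1 and 36.7% for MAP1LC3B2. The median over the 17877 genes with a value was 32.9%, so GABARAPL2 lay at percentile 6.04 of all genes and GABARAPL1 at percentile 48.5. These are percentiles among genes of every level, while the levels of GABARAPL2 and GABARAPL1 were at percentiles 88.7 and 90.3. Their spread was not compared with that of genes of like level.

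Levels can be compared between genes only per length, and the order depended on the length used. Per kilobase of the main transcript, GABARAPL2 was highest in 12 of 12 libraries, at 111 ± 12.6 CPM per kb (SD over 12 libraries), followed on average by MAP1LC3B at 84.5 ± 15.6, GABARAPL1 at 65.4 ± 23.2 and GABARAP at 56.2 ± 16.5. MAP1LC3B2 was at 11.6 ± 3.95 CPM per kb. Per kilobase of all annotated exons, MAP1LC3B (42.8 ± 7.91), GABARAP (40.5 ± 11.9), GABARAPL2 (36.7 ± 4.16) and GABARAPL1 (31.3 ± 11.1 CPM per kb) were closer together, and the ranges of mean ± SD overlapped for every pair. MAP1LC3B2 was the lowest of the 5 on both scales.

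The summed level of the 5 genes was 556 ± 169 CPM in vector fed, 563 ± 72.3 in vector starved, 585 ± 48.7 in TRPML3 fed and 561 ± 97.9 CPM in TRPML3 starved cells (SD, n = 3), and the means differed by less than the spread within each group. The share of the family's counts taken by MAP1LC3B averaged from 34.1 ± 6.66% in vector fed to 44.8 ± 6.47% in TRPML3 starved cells. The GABARAPL1 share averaged 26.0 ± 5.23% and 25.9 ± 2.18% in vector and TRPML3 fed cells and 19.6 ± 1.55% and 17.5 ± 8.96% in starved cells.

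**Figure D2:**
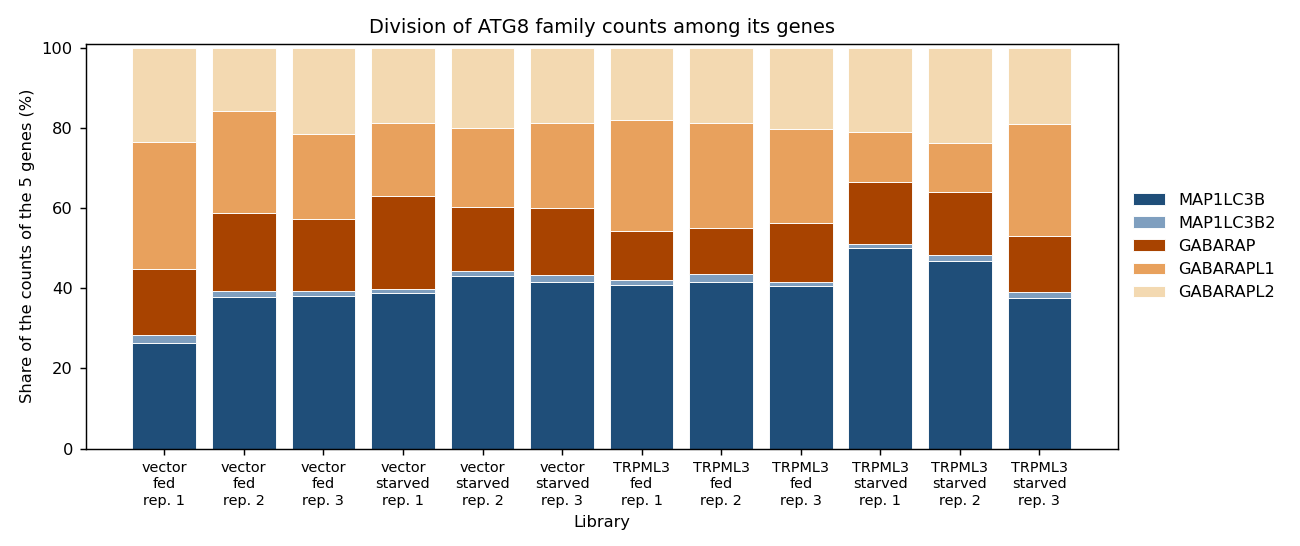
Share of the counts of the 5 detected ATG8 genes (percent, stacked to 100) in each of the 12 libraries. MAP1LC3B takes the largest share in 11 of 12 libraries, and the GABARAPL1 share is smaller in TRPML3 starved replicates 1 and 2 than in replicate 3.

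TRPML3 against vector in fed cells asks whether the channel alters ATG8 transcripts when serum is present. No member differed beyond the spread between replicates. In edgeR's quasi-likelihood test, 0 of the 5 members passed an adjusted p of 0.05, where 0.0111% of the 18030 genes tested did. At an unadjusted p under 0.05 the members' count was again 0, beside 2.21% of all genes, and 0 members had groups that did not overlap, beside 7.09% of all genes. A count of 0 among 5 genes does not stand apart from shares of this size. The estimates (log2 fold change ± SE) were 0.33 ± 0.23 for MAP1LC3B, -0.10 ± 0.45 for MAP1LC3B2, -0.44 ± 0.29 for GABARAP, 0.06 ± 0.42 for GABARAPL1 and 0.02 ± 0.18 for GABARAPL2. For GABARAPL2 the 95% interval ran from -0.37 to 0.42, or 0.772- to 1.33-fold. The MAP1LC3B and GABARAP estimates depended on vector fed replicate 2, which held the highest value of both genes in its group. Without that library the MAP1LC3B estimate was larger, 0.72 ± 0.15, and the GABARAP estimate smaller in size, -0.10. MAP1LC3B was then at an unadjusted p under 0.05 but did not pass (edgeR, adjusted p = 1). Without vector fed replicate 1 the MAP1LC3B estimate was 0.14. The members' median was 0.02 and that of all genes -0.01.

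TRPML3 against vector in starved cells asks the same after the treatment meant to induce autophagy. Again 0 of 5 members passed, beside 0.00555% of all genes, and 0 had an unadjusted p under 0.05, beside 2.2% of all genes. No member had separate groups, beside 6.58% of all genes. The estimates were 0.10 ± 0.23 for MAP1LC3B, 0.17 ± 0.45 for MAP1LC3B2, -0.35 ± 0.29 for GABARAP, -0.08 ± 0.42 for GABARAPL1 and 0.13 ± 0.18 for GABARAPL2. The GABARAPL2 interval was -0.26 to 0.53. The GABARAP estimate rested on vector starved replicate 1, and without that library it was -0.02. The small GABARAPL1 estimate depended on TRPML3 starved replicate 3, and without that library it was larger in size, -0.82 ± 0.30 (edgeR, adjusted p = 1). The members' median was 0.10 and that of all genes -0.01.

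Averaged over both serum states, TRPML3 again gave 0 of 5 members at an adjusted p of 0.05 (0.0111% of all genes) and 0 at an unadjusted p under 0.05 (2.62% of all genes). GABARAP had the largest estimate, -0.40 ± 0.20 with a 95% interval from -0.85 to 0.06 (edgeR, adjusted p = 1). The other estimates were 0.22 ± 0.17 for MAP1LC3B, 0.03 ± 0.32 for MAP1LC3B2, -0.01 ± 0.30 for GABARAPL1 and 0.08 ± 0.13 for GABARAPL2, whose interval was -0.20 to 0.36. Over all 12 libraries, therefore, a change of GABARAPL2 in either direction by more than 1.28-fold lay outside the 95% interval. Without vector fed replicate 2 the MAP1LC3B estimate was 0.41 ± 0.10 (edgeR, adjusted p = 1). Without TRPML3 starved replicate 3 that of GABARAPL1 was -0.38. The GABARAP estimate ran from -0.49 without vector fed replicate 3 to -0.22 without vector fed replicate 2. In 2 of the 12 edgeR fits with 1 library left out GABARAP had an unadjusted p under 0.05, and it passed in 0.

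Starved against fed vector cells asks how 4 h without serum changes the family without added channel. 0 of 5 members passed, beside 0.00555% of all genes, 0 had an unadjusted p under 0.05, beside 4.44%, and 0 had separate groups, beside 9.93%. The estimates were 0.27 ± 0.23 for MAP1LC3B, -0.31 ± 0.45 for MAP1LC3B2, 0.09 ± 0.29 for GABARAP, -0.41 ± 0.42 for GABARAPL1 and -0.02 ± 0.18 for GABARAPL2. Without vector fed replicate 2 the estimates were 0.66 ± 0.15 for MAP1LC3B (edgeR, adjusted p = 1), 0.44 for GABARAP and -0.19 for GABARAPL1. The members' median of -0.02 was near that of all genes (-0.01).

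Starved against fed TRPML3 cells gave 0 of 5 members as well, where 0% of all genes passed. At an unadjusted p under 0.05 there were 0 members and 5.71% of all genes, and groups were separate for 0 members and 11.2% of all genes. The estimates were 0.04 ± 0.23 for MAP1LC3B, -0.05 ± 0.45 for MAP1LC3B2, 0.18 ± 0.29 for GABARAP, -0.55 ± 0.42 for GABARAPL1 and 0.10 ± 0.18 for GABARAPL2. Without TRPML3 starved replicate 3 the GABARAPL1 estimate was -1.29 ± 0.30 (edgeR, adjusted p = 0.594). The members' median was 0.04 and that of all genes 0.01.

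The interaction, the starvation effect with TRPML3 minus that with vector, was tested for each member. The members' count was 0 at an adjusted p of 0.05, beside 0% of all genes, and 0 at an unadjusted p under 0.05, beside 2.07% of all genes. Estimates ran from -0.23 ± 0.33 for MAP1LC3B to 0.27 ± 0.64 for MAP1LC3B2. They were -0.62 ± 0.20 for MAP1LC3B without vector fed replicate 2 and -0.89 ± 0.39 for GABARAPL1 without TRPML3 starved replicate 3 (edgeR, adjusted p = 1 for both). Averaged over both plasmids, starvation gave 0 members and 0% of genes at an adjusted p of 0.05, and 0 members and 9.45% of genes at an unadjusted p under 0.05. GABARAPL1 had the largest estimate, -0.48 ± 0.30 (95% interval -1.14 to 0.18, edgeR adjusted p = 0.677), and GABARAPL2 one of 0.04 ± 0.13. Without TRPML3 starved replicate 3 the GABARAPL1 estimate was -0.84 ± 0.20 (edgeR, adjusted p = 0.357), and without vector fed replicate 2 that of MAP1LC3B was 0.35 ± 0.10 (adjusted p = 0.578). DESeq2 called 0 members in each of the 7 comparisons, and 0 had an unadjusted p under 0.05 there. Shares of all genes were not taken for that fit, so these counts are not set against a background.

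**Figure D3:**
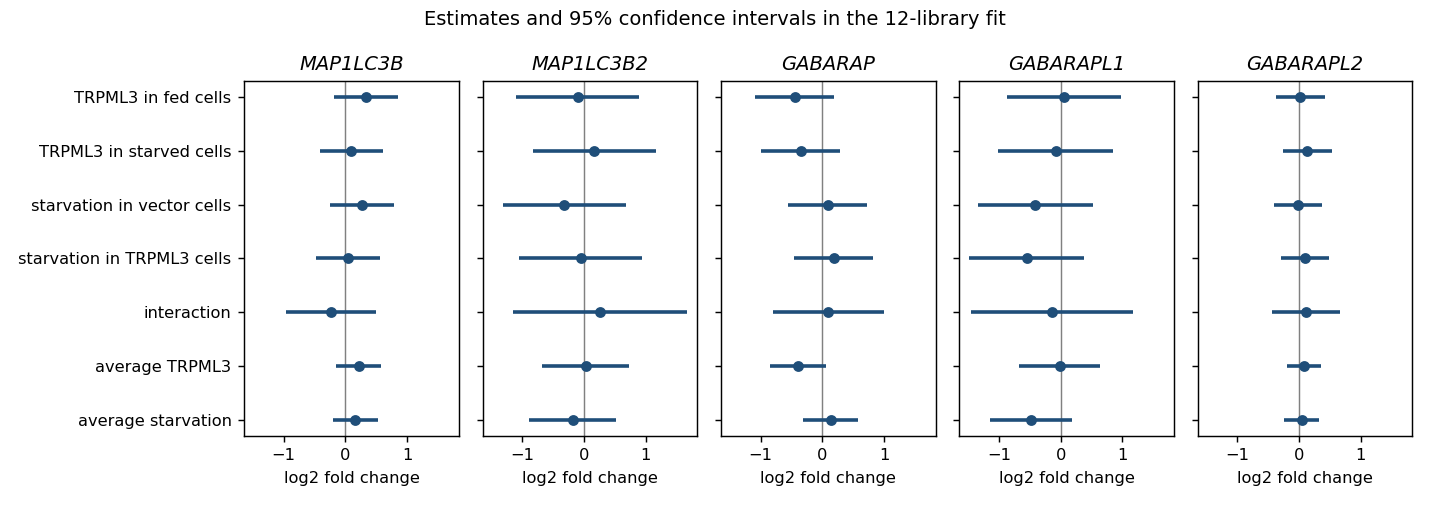
Log2 fold change of the 5 tested ATG8 genes (points, horizontal axis) with 95% confidence intervals (bars) in 7 comparisons, from the edgeR fit to 12 libraries; the interaction is the starvation effect with TRPML3 minus that with vector. All 35 intervals cross 0, and they are narrowest for GABARAPL2.

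The wide interval of GABARAPL1 came with opposite directions in libraries of different number. Set against the fed library of the same plasmid and number, the starved library differed by -0.50, -0.90 and 0.38 (log2) in vector and by -1.50, -1.32 and 0.59 in TRPML3 cells for replicates 1, 2 and 3. MAP1LC3B2 had the same pattern, with -0.70, -0.83 and 0.73 in vector and -0.70, -0.63 and 1.30 in TRPML3 cells. GABARAPL2 differed by at most 0.25 in either direction. Replicate number as such was tested in edgeR with the groups in the fit. It was past an adjusted p of 0.05 for 0 of 5 members (lowest 0.870) and 0% of all genes. At an unadjusted p under 0.05 there were 0 members and 8.45% of all genes. That test looks for a shift of a number that all groups share. Shifts of opposite sign in fed and starved cells offset each other in it, so it cannot decide on the pattern above.

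**Figure D4:**
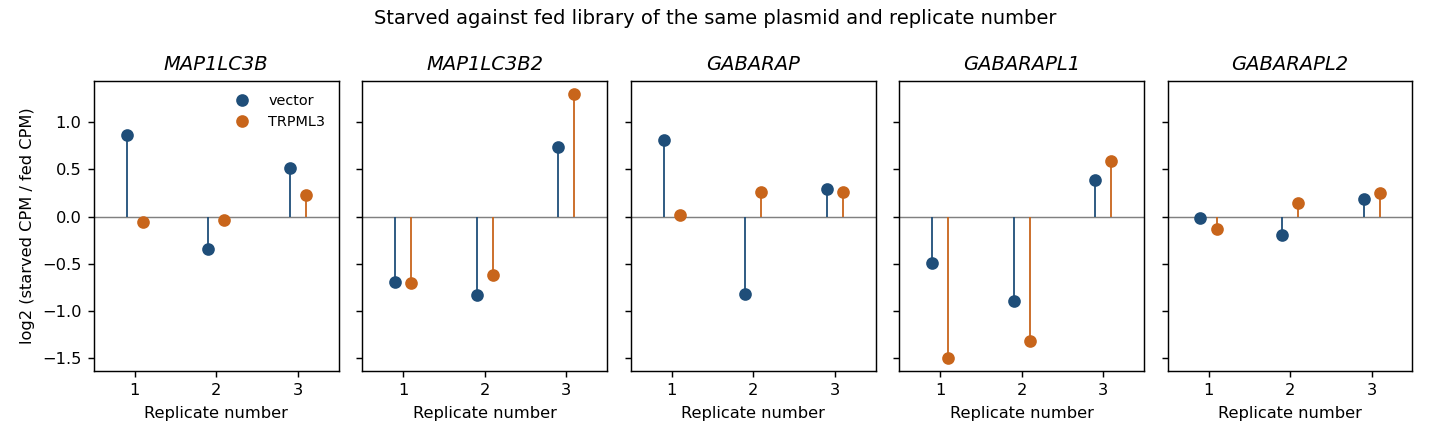
Log2 ratio of the starved to the fed library of the same plasmid and replicate number (vertical axis, 0 means no difference) for the 5 detected ATG8 genes, in vector (blue) and TRPML3 (orange) cells. For GABARAPL1 and MAP1LC3B2, replicates 1 and 2 lie below 0 and replicate 3 above 0 with both plasmids. No label states that the libraries of a ratio were paired.

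Without replicate 3 in all groups, GABARAPL1 was lower in starved cells. This alternative was chosen knowing from earlier results of these data that it adds calls, so it is no independent evidence. Fed replicates 1 and 2 of both plasmids held 163 to 188 CPM and starved replicates 1 and 2 held 59.7 to 116 CPM, without overlap, as did 20.2% of all genes. The average starvation effect was -1.04 ± 0.11 (edgeR, adjusted p = 0.0248), against -0.48 ± 0.30 with all libraries. It was 1 of 810 genes called in that fit, or 4.49% of 18052, and the only one of the 5 members. The estimate was -0.68 ± 0.15 in vector (adjusted p = 0.166) and -1.40 ± 0.15 in TRPML3 cells (adjusted p = 0.0825). The difference between these was -0.72 ± 0.21 and did not pass (edgeR, adjusted p = 1), so the response was not shown to depend on the plasmid. In the same fit the TRPML3 effect on GABARAPL1 was -0.80 ± 0.15 in starved cells (edgeR, adjusted p = 0.902) and -0.44 ± 0.11 on average (adjusted p = 0.957), against -0.08 and -0.01 with all libraries.

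That call depended on the fit. With the replicate number also as a block, the estimate for GABARAPL1 stayed at -1.04 and the adjusted p was 0.0618. Leaving out 1 further library in turn gave estimates from -1.12 to -0.99 and adjusted p from 0.0559 to 0.0883, so 0 of 8 such fits passed. These fits called from 0 to 69 genes (0 to 0.358% of those tested, and 0 genes in 4 of the 8), so the loss was not particular to GABARAPL1. DESeq2 on the same 8 libraries gave -1.06 with an adjusted p of 2.35e-10, in a test that called 13.1% of genes. DESeq2 also called GABARAPL1 in 3 single comparisons. These were starvation with vector (-0.68, adjusted p = 0.0271, 5.84% of genes called) and with TRPML3 (-1.43, adjusted p = 4.77e-09, 7.03%), and TRPML3 against vector when starved (-0.81, adjusted p = 0.0227, 0.629%). MAP1LC3B2 had an average starvation estimate of -0.70 ± 0.27 in the edgeR fit without replicate 3, which did not pass (adjusted p = 0.193). What sets the libraries numbered 3 apart was not tested, and their mitochondrial share and MCOLN3 level differ as given above.

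The levels of the members were set against that of MCOLN3 in the 6 TRPML3 libraries, where the channel's own RNA varied. None of the 5 relations passed. GABARAPL1 had Pearson's r = -0.777 (exact permutation p = 0.0972, adjusted 0.486) and Spearman's rho = -0.714 (exact permutation p = 0.136, adjusted 0.445), both two-sided. Without TRPML3 fed replicates 1 and 2, whose MCOLN3 levels were farthest from the median on the log2 scale, r was -0.848 over the other 4. For GABARAPL2, r was -0.01 (exact permutation p = 0.979). For GABARAP r changed from 0.43 to -0.63 without the same 2 libraries, so its sign rested on them. Among replicates 1 and 2 the starved libraries held more MCOLN3 than the fed ones, and in replicate 3 the order was the reverse. The 6 libraries hold fed and starved cells together, and a relation within a serum state was not tested.

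The genes that attach ATG8 proteins to membranes did not pass either. Of the 11 conjugation genes, ATG3, ATG4A to ATG4D, ATG5, ATG7, ATG10, ATG12, ATG16L1 and ATG16L2, all were tested. In each of the 7 comparisons 0 of them passed an adjusted p of 0.05, beside 0% to 0.0111% of all genes. A count of 0 among 11 genes does not stand apart from shares of this size. The median of their log2 estimates was 0.21 with TRPML3 when fed and -0.03 when starved, and 0.19 for starvation in vector and 0.05 in TRPML3 cells, where those of all genes lay between -0.01 and 0.01. ATG3, the E2-like enzyme, had the lowest estimate for starvation, -0.49 ± 0.21 in vector cells (edgeR, adjusted p = 1) and -0.41 ± 0.15 averaged over plasmids (adjusted p = 0.435). Both were at an unadjusted p under 0.05, beside 4.44% and 9.45% of all genes. No other conjugation gene was so in any comparison. Its level was 98.2 ± 22.1 CPM in vector fed and 69.9 ± 6.54 in vector starved cells, and 111 ± 18.1 and 88.4 ± 14.0 CPM in TRPML3 fed and starved cells (SD, n = 3). ATG12, the ubiquitin-like protein of the conjugation complex, had the highest average starvation estimate, 0.35 (edgeR, adjusted p = 0.631). The protease gene ATG4A had the highest average TRPML3 estimate, 0.34 (adjusted p = 1). The protease genes ATG4C and ATG4D gave most of the other extremes. ATG4D was at 0.45 ± 0.55 with TRPML3 in fed and at -0.36 ± 0.55 in starved cells, and its interaction was -0.81 ± 0.78 (edgeR, adjusted p = 1 in each).

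Of the 20 receptor and adaptor genes, whose proteins bind ATG8 proteins, 0 passed in any of the 7 comparisons. Beside 0% to 0.0111% of all genes, a count of 0 among 20 does not stand apart. Their medians were 0.10 and 0.19 for TRPML3 in fed and starved cells, with 13 and 15 of 20 estimates above 0, and -0.05 and 0.02 for starvation in vector and TRPML3 cells. RB1CC1, a scaffold of the kinase complex that starts autophagy, was at 89.9 ± 26.4 CPM in vector fed, 93.9 ± 17.1 in vector starved, 181 ± 50.3 in TRPML3 fed and 82.0 ± 36.9 CPM in TRPML3 starved cells (SD, n = 3). Its estimate for TRPML3 in fed cells was 1.01 ± 0.35 (edgeR, adjusted p = 1), for starvation in TRPML3 cells -1.15 ± 0.35 (adjusted p = 0.819) and for the interaction -1.21 ± 0.50 (adjusted p = 1), each at an unadjusted p under 0.05. Over all genes the shares under that value were 2.21%, 5.71% and 2.07%. ULK1, the kinase of the same complex, was at 25.9 ± 2.39 CPM in vector fed and 8.95 ± 5.09 CPM in TRPML3 fed cells, an estimate of -1.53 ± 0.58 (edgeR, adjusted p = 1). FUNDC1, a mitophagy receptor, had the highest average TRPML3 estimate, 0.77 ± 0.25 (edgeR, adjusted p = 1). At the other ends, the ER-phagy receptor TEX264 had 0.94 ± 0.55 and CALCOCO2, a receptor for bacteria and mitochondria, -0.24 ± 0.25 for TRPML3 in starved cells. STBD1, a glycogen receptor, had -1.12 ± 0.66 for starvation in vector cells.

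SQSTM1, the p62 receptor that brings ubiquitinated cargo to LC3, had the highest starvation estimate of this list in vector cells and on average. Its level was 42.9 ± 14.7 CPM in vector fed, 82.6 ± 28.0 in vector starved, 70.0 ± 41.1 in TRPML3 fed and 96.4 ± 19.7 CPM in TRPML3 starved cells (SD, n = 3). The estimates were 0.94 ± 0.42 in vector cells (edgeR, adjusted p = 1) and 0.70 ± 0.29 on average (adjusted p = 0.488). Without replicate 3 in all groups the average estimate was 1.28 ± 0.23 and it passed (edgeR, adjusted p = 0.0439), the only gene of the list to do so in that fit, beside 4.49% of all genes. With 1 further library left out in turn it passed in 0 of 8 fits (estimates from 0.98 to 1.45, edgeR adjusted p from 0.0859 to 0.127), and with the replicate block 0 genes of the list passed. The estimates of SQSTM1 and GABARAPL1 thus lay on opposite sides of 0 there. DESeq2 without replicate 3 called SQSTM1 for starvation with vector (adjusted p = 0.0186, 5.84% of genes called) and with TRPML3 (adjusted p = 0.0443, 7.03%). It also called it on average (adjusted p = 0.000208, 13.1%). CCPG1 of the list was called there on average too (-0.46, DESeq2 adjusted p = 0.0302), but did not pass in edgeR (adjusted p = 0.0813).

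The 5 detected members did not vary as 1 unit across libraries. Pearson's r of log2 CPM over the 12 libraries, given as a description, was highest for GABARAPL1 with MAP1LC3B2 (0.659) and GABARAPL2 with MAP1LC3B2 (0.639), and lowest for GABARAPL1 with MAP1LC3B (0.0885). The near-identical MAP1LC3B and MAP1LC3B2 had 0.145. The 3 tested genes most like each member, by r over the same 12 libraries, were SC5D (0.939), SKOR1 (0.910) and PLCB3 (0.888) for MAP1LC3B and HOTAIRM1 (0.971), TMEM129 (0.961) and BRK1 (0.960) for MAP1LC3B2. For GABARAP they were DOCK6 (0.827), EVA1C (0.804) and IFI27L2 (0.795), and for GABARAPL1 ARHGAP18 (0.951), PPM1L (0.930) and LINGO1 (0.924). For GABARAPL2 they were PTTG1 (0.931), LAPTM4B (0.905) and NTS (0.888). These values share the libraries and their scaling and were selected as the highest of all genes. The lowest mean levels among these genes were those of EVA1C (0.43 CPM), SKOR1 (1.42 CPM), NTS (1.63 CPM) and IFI27L2 (2.01 CPM).

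Promoters of 5 members, all but MAP1LC3A, were in the RefSeq promoter table of GRCh38.p14, from 250 bases before to 50 after the start. The letters CACGTG, searched on both strands, were in 7.26% of 35116 promoters, the longer TCACGTGA that contains them in 0.980%, and GTAAACA in 3.42%. None of the 5 members' windows held any of the 3, which says only that these letters are not in these windows.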

How the data were processed

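PolyA RNA-seq libraries of 12 HEK293T cultures were grouped by their titles. Raw counts per gene were deposited by the authors and were the values tested. A deposited normalized signal, which the authors made, equals these counts divided by 1 size factor per library (within 0.0797% of DESeq2's factor), and it served as an alternative. FastQC, fastp, HISAT2, StringTie, DESeq2 and GRCh38 are named in the submitters' processing notes. The annotation release, strand use and handling of shared reads are not given in the sources used here, so the counts may be rounded estimates.

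Counts were tested in R 4.3.3 with edgeR 4.0.16 (TMM, filterByExpr by group, robust quasi-likelihood fit of 12 libraries with 1 coefficient per group, Benjamini-Hochberg over 18030 genes, threshold 0.05). DESeq2 1.42.0 and limma 3.58.1 (log2 of the normalized signal plus 1) were alternatives, beside other scalings and filters, a replicate block, and each library or replicate number left out. The test was checked on simulated independent counts without libraries that stand apart, so the check does not give its power in these data. CPM were TMM-scaled, with a prior count of 0.5 for correlations. Floors of 3 counts cover counting error only.

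The members and lists were chosen with earlier results of these data known. The rule named all members, of each list the genes called or else the highest and lowest estimate per comparison, and the 3 genes most like each member. RB1CC1, ULK1, SQSTM1 and ATG3 values by group follow from it. Gene identifiers matched GENCODE 29 for 93.9% of 41878 entries, without version numbers.

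Same-numbered vector and TRPML3 libraries deviated together from their group means in fed cells (r = 0.103, 0.132 and 0.300 for numbers 1, 2 and 3). All met the criterion of every r over 0.1. In starved cells r was much the same, 0.124, 0.0866 and 0.303, though number 2 missed the criterion. The criterion thus does not set the serum states apart. Between fed and starved libraries r ran from -0.0757 to 0.00143. The mitochondrial share followed the number in all groups, and whether same-numbered libraries share a batch was not tested.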

Additional observations from a re-analysis of the deposited data

How the results depend on the processing

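The log2 fold changes of the 5 members were recomputed under 29 settings, 972 values in all, of which 100 changed sign, mostly within their standard error, and 6 passed an adjusted p of 0.05, all for GABARAPL1 without replicate 3. Library size as the only scaling moved the median of all genes by up to -0.104, to -0.11 (TRPML3 in starved cells), and changed 7 of 35 signs. The setting that sums all entries of a symbol was not run, because each member had 1. Summing MAP1LC3B and MAP1LC3B2 changed no sign. A paired fit with the replicate block changed no member's call with 12 libraries (GABARAPL1, average starvation, -0.51, adjusted p = 0.675). Leaving out 1 library gave 420 values, of which 0 passed and 11 had an unadjusted p under 0.05, the largest moves being given with the comparisons. Without a replicate number, 3 estimates changed sign where the value with or without it was larger than its standard error: GABARAP with TRPML3 in starved cells ranged from -0.54 (without replicate 3) to 0.0546 (without replicate 1), GABARAP with starvation in vector cells from -0.35 (without replicate 1) to 0.60 (without replicate 2), and its interaction from -0.46 (without replicate 2) to 0.61 (without replicate 1). Members called for average starvation ranged from 0 to 1 when a library or number was left out, and receptor and adaptor genes likewise from 0 to 1, the 1 in each being the fit without replicate 3. Also without replicate 3, settings added after seeing the data gave 1 member and 1 receptor gene for average starvation with library size only, where GABARAPL2 was at -0.14, and with DESeq2 1 member for each starvation comparison (vector, TRPML3, average), 1 for TRPML3 against vector when starved, and 1, 1 and 2 receptor genes for starvation. At an unadjusted p under 0.05, 3 of 20 receptor and adaptor genes counted with TRPML3 when fed (2.21% of all genes), 1 for starvation with vector (4.44%), 1 with TRPML3 (5.71%), 1 for the interaction (2.07%), 2 for average TRPML3 (2.62%) and 2 for average starvation (9.45%), and 1 of 11 conjugation genes for starvation in vector cells and on average. The cause was not tested. The effect of depth was not tested. The members' totals over 12 libraries were 3490 counts for MAP1LC3B2 and 42022 or more for the other 4.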
